A study of Mus musculus with 2756 samples.

Results

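Neurons of the embryonic mouse neocortex that had been labelled 24 h earlier were compared between a pair of clusters that the depositors named N1d.late and N1d.early, within each of 2 injection days. FlashTag, a fluorescent dye injected into the ventricle, marks cells that divide at the ventricular surface at that moment, so labelled cells collected 24 h later share a birth day. The members were all cells of 24 h from injection days E13 and E14 (embryonic day 13 or 14) with either cluster label. They came to 326 of the 2756 cells in the series. Of these, 187 were N1d.late cells, 33 of E13 and the rest, 47.2% of the members, of E14. The others were N1d.early cells, 18 of E14 and the rest, 37.1% of the members, of E13. The dye-bright cells came from the putative primary somatosensory cortex, were sorted, captured singly on a microfluidic circuit and sequenced from SMART-Seq v4 cDNA. The labels gave no strain, genotype, litter or animal for any group, and did not say what early and late stand for or how the clusters were drawn.

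Cortical projection neurons are born from apical progenitors at the ventricle, either directly or through basal (intermediate) progenitors. They then leave the cycle, migrate outward and start to extend axons. Deep-layer neurons are born before upper-layer neurons, and progenitors change their expression over the same days. Neurons caught 24 h after labelling are therefore close to this switch, and genes of dividing progenitors, migration and axon growth are the ones in which such cells are known to differ.

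The N1d.late share of N1d cells of 24 h was 3.98% at E12 (7 of 176 cells, exact 95% Clopper-Pearson interval 1.61 to 8.02%), 21.4% at E13 (15.2 to 28.8%), 89.5% at E14 (83.97 to 93.7%) and 98.5% at E15 (all but 2 cells, 94.6 to 99.8%). E12 and E13 carried the same run code in their titles, and E14 and E15 another, so a change of share between E13 and E14 cannot be told apart from the change of run. Within E13 and within E14 the run code and the birth day are the same for both clusters, which is what the pairing rests on.

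The 4 sums of counts were unequal. N1d.late held 19796676 counts at E13, against 39770079 for N1d.early, and 64182147 at E14, against 2830505 for N1d.early, where the deepest cell alone gave 20.8% of the sum. The median cell had 550331 counts in N1d.late and 285016 in N1d.early at E13, and 427016 in N1d.late and 99361 in N1d.early at E14. After each cell was thinned to 50000 counts, the median cell still showed 2887 genes in N1d.late and 2244 in N1d.early at E13, and 3179 in N1d.late and 2542 in N1d.early at E14. Counts and genes per cell thus moved with the cluster on both days, and their part in the differences below was not tested beyond the values for thinned cells, cells of 100000 to 600000 counts and equal weight per cell. The depositors' pseudo.differentiation label had a median of 0.361 in N1d.late and 0.343 in N1d.early at E13, and 0.403 in N1d.late and 0.302 in N1d.early at E14.

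**Figure D1:**
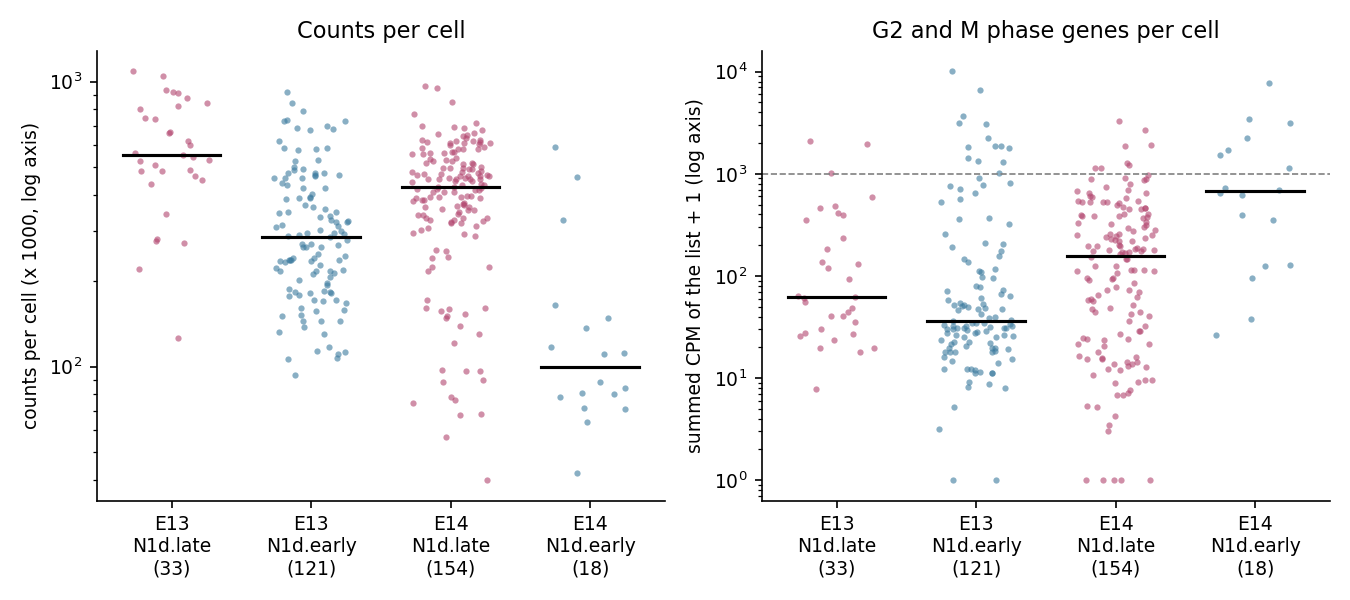
Counts per cell (left) and summed CPM (counts scaled to a total of 1000000) of the 26 G2 and M phase genes per cell, plus 1 (right), both on log axes; each point is 1 cell, the black line is the median, and cell numbers stand in parentheses. N1d.late cells were deeper on both days, and 7 of the 18 E14 N1d.early cells lay above the dashed line at 1000 CPM, against 5.19% of the E14 N1d.late cells.

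Since 1 sum per cluster and day leaves 2 pairs, the difference was fitted over both with injection day as a term, which has 1 residual degree of freedom. edgeR's quasi-likelihood test found 0 of 8546 genes past a Benjamini-Hochberg adjusted p of 0.05, which is 0.0%. At an unadjusted p under 0.05 it gave 280 genes, with 1.31% of all genes higher in N1d.late and 1.97% lower. DESeq2 on the same sums called 3 genes higher (0.0351%) and 43 lower (0.503%). Of those 43, 37 had over 50% of their E14 N1d.early counts in 1 cell, and their median share in 1 cell was 96.8%, against 65.8% over all genes tested. The gene values below are therefore descriptions of the 2 pairs, and "higher" and "lower" give the direction of the values without a call. The clusters are the depositors' own, and if they were drawn from the expression of these cells no gene difference between them is independent evidence.

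By size alone, 592 of the 8546 genes (6.93%) were at least 2-fold higher in N1d.late on both days and 277 (3.24%) at least 2-fold lower, on the log2 (CPM + 1) scale. The balance rested on low genes: among the 4184 genes with a mean of at least 50 CPM, 66 were at least 2-fold higher on both days and 89 lower. Over all genes the median difference, late minus early, was 0.04 at E13 and 0.40 at E14, and 0.10 in the fit. The 2 days had the same sign for 4368 genes, or 51.1%: 31.3% of all genes were higher in N1d.late on both days and 19.8% lower on both, and 48.9% took opposite directions. The list counts below are read against these shares. Across genes, which are not independent replicates, the differences of the 2 days had a Pearson correlation of 0.014, and of -0.15 over the 1021 genes with a mean of at least 200 CPM. The sign of a difference at E13 thus told little of its sign at E14.

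**Figure D2:**
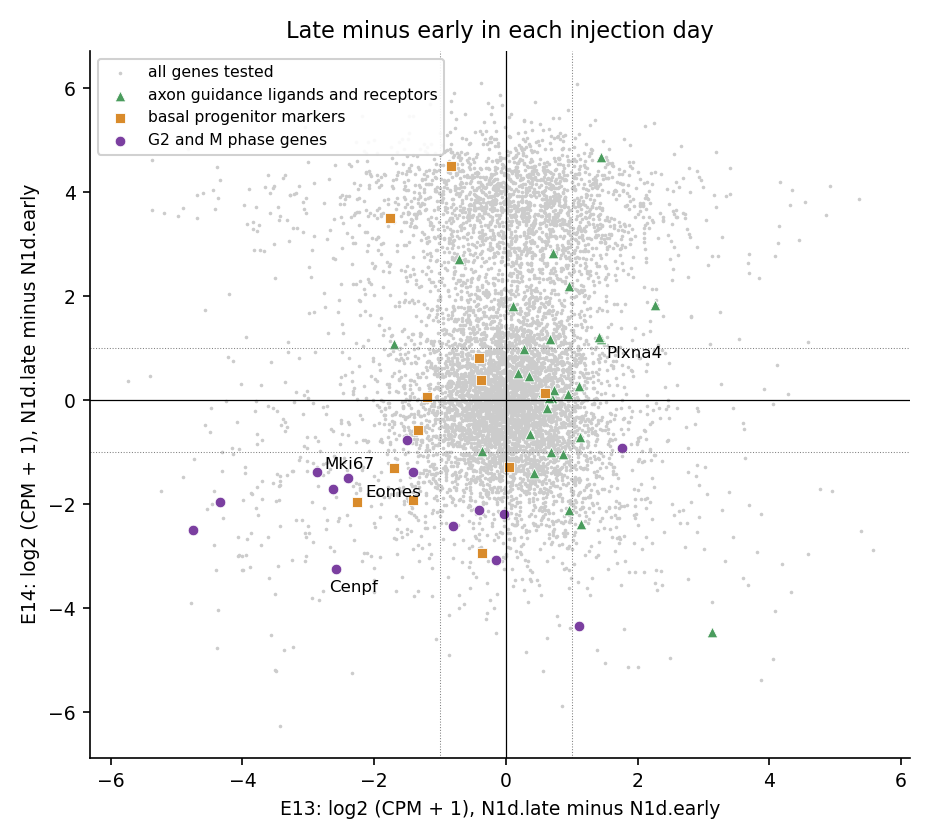
Difference in log2 (CPM + 1), N1d.late minus N1d.early, at E13 (horizontal) and E14 (vertical) for the 8546 genes tested; dotted lines mark 2-fold. Of the 16 G2 and M phase genes, 13 lie at the lower left, lower in N1d.late on both days.

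Genes of the G2 and M phases of the cell cycle, which serve chromosome condensation, the spindle and its checkpoint, were lower in N1d.late on both days more often than any other list described here of at least 8 tested genes. Of the 16 members tested, 13 were lower on both days and 0 were higher on both, and 8 were at least 2-fold lower on both, against 277 of 8546 genes overall. Their median difference, N1d.late minus N1d.early, was -1.95 at E13, -1.83 at E14 and -1.85 in the fit. None passed the adjusted threshold in edgeR, and 2 had an unadjusted p under 0.05. Summed over the 26 members, the list stood at 286 CPM in N1d.late and 646 CPM in N1d.early at E13, and at 263 CPM in N1d.late and 1161 CPM in N1d.early at E14. Those sums rested on few cells: the fewest cells that held 50% of the counts numbered 3 in E13 N1d.late and 3 in E13 N1d.early, and 19 in E14 N1d.late and 3 in E14 N1d.early.

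The cell counts show where this sits. Cells with over 1000 CPM of the list made up 9.09% of E13 N1d.late cells (3 of 33) and 11.6% of E13 N1d.early cells (14 cells). At E14 they made up 5.19% of N1d.late cells (8 cells) and 38.9% of N1d.early cells (7 of 18). The median cell had 61.8 CPM in N1d.late and 34.9 CPM in N1d.early at E13, and 156.8 CPM in N1d.late and 672 CPM in N1d.early at E14. At E13 the typical N1d.early cell was thus no higher than the typical N1d.late cell, and the difference between the sums lay in a few cells with very high levels, the highest being 2087 CPM in N1d.late and 10070 CPM in N1d.early. Whether such cells are dividing neurons, progenitors given a neuron label or captures of more than 1 cell cannot be told apart here.

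Cenpf, which encodes a kinetochore protein made in G2 and mitosis, stood at 8.13 CPM in N1d.late and 53.5 CPM in N1d.early at E13, and at 27.2 CPM in N1d.late and 265 CPM in N1d.early at E14. Both N1d.late sums were below both N1d.early sums. Its fitted log2 difference was -3.14 with a standard error of 0.89 (edgeR adjusted p = 0.371, DESeq2 adjusted p = 0.00225), and its largest cell held 39.4% of the E14 N1d.early counts. Mki67, the proliferation marker Ki-67, had 10.1 and 29.8 CPM in the N1d.late sums of E13 and E14, against 57.4 and 85.9 CPM in the N1d.early sums, but 94.7% of its E14 N1d.early counts came from 1 cell. Its fitted difference was -2.16 with a standard error of 1.29, and it took the opposite sign, 0.49, when cells outside 100000 to 600000 counts were left out. Ube2c, the ubiquitin-conjugating enzyme of the anaphase-promoting complex, had 15.3 CPM in N1d.late and 117.6 CPM in N1d.early at E13, and 10.1 CPM in N1d.late and 27.9 CPM in N1d.early at E14. Cenpe, a kinetochore motor, had 0.556 CPM in N1d.late and 41.0 CPM in N1d.early at E13, and 7.76 CPM in N1d.late and 48.4 CPM in N1d.early at E14. For Ube2c 94.9%, and for Cenpe 93.4%, of the E14 N1d.early counts came from 1 cell.

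The promoters of 3 of these genes are shown because G2 and M phase genes are known to share short promoter elements, the CHR (cell cycle genes homology region) and the CCAAT box, and the members were lower together. The windows run from 250 bases before to 50 bases after the annotated start, in RefSeq on build GRCm38.p6, printed 5′ to 3′ on the gene's strand, with every match to TTTGAA (CHR) or CCAAT, on either strand, in capitals. The Cenpf window is chr1:189688037-189688336 on the minus strand, the Ube2c window chr2:164769679-164769978 on the plus strand, and the Mki67 window chr7:135716330-135716629 on the minus strand.
Cenpf: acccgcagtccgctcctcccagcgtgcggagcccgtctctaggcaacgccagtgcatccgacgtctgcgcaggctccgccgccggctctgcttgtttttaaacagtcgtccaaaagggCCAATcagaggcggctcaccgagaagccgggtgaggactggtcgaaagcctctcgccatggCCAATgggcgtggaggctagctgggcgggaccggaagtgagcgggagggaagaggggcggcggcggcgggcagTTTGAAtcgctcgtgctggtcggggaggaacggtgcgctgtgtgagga
Ube2c: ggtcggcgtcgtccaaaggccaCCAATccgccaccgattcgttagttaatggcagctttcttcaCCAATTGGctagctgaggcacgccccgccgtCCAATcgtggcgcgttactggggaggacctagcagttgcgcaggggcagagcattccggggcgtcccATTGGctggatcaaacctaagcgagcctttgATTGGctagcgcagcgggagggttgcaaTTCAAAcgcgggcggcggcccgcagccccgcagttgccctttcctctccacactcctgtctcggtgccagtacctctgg
Mki67: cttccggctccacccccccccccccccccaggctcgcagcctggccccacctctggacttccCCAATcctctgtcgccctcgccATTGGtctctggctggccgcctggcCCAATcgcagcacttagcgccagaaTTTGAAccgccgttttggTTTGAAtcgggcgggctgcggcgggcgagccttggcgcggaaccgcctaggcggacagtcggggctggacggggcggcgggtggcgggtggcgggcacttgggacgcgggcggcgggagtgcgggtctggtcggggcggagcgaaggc
The CHR letters matched 1 time in Cenpf, 1 time in Ube2c and 2 times in Mki67, and the CCAAT letters 2, 6 and 3 times. A promoter was found for 23 of the 26 members, and 18 of those 23 genes (78.3%) held the CHR letters in a window, against 20.2% of all 27025 genes in the promoter table. The CCAAT letters were in windows of 20 of the 23, against 41.1% of all genes. Among the 8 members at least 2-fold lower on both days, 7 had a promoter, and 4 of those held the CHR letters. These are matches of letters only, and they show no binding.

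S phase genes, which serve DNA replication, were less uniform. Of 18 tested, 6 were lower on both days, 0 were higher on both, and 12 took opposite directions, against 19.8%, 31.3% and 48.9% of all genes. Their fitted median was -0.39, and it was 0.57 among cells with a pseudo-differentiation of 0.30 to 0.42. Mcm2, a subunit of the replicative helicase, had 9.95 CPM in N1d.late and 31.8 CPM in N1d.early at E13, and 19.2 CPM in N1d.late and 212 CPM in N1d.early at E14, a fitted difference of -2.71 with a standard error of 1.03 (edgeR adjusted p = 0.999).

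Of 12 basal progenitor markers tested, 5 were lower in N1d.late on both days, against 19.8% of all genes, 1 was higher on both and 3 were at least 2-fold lower on both, and their median difference was -1.02 at E13 and -0.26 at E14. Eomes (Tbr2), the transcription factor that defines intermediate progenitors, stood at 27.6 CPM in N1d.late and 135.7 CPM in N1d.early at E13, and at 92.6 CPM in N1d.late and 362 CPM in N1d.early at E14. Within each day the N1d.late sum was the lower one, and the fitted log2 difference was -2.27 with a standard error of 0.63 (edgeR adjusted p = 0.371, DESeq2 adjusted p = 0.00894). It lay between -2.48 and -1.70 under every other setting tried, single pairs included.

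The share of cells with an Eomes count differed little between the clusters. At 50000 counts a cell, 27.3% of N1d.late cells (9 of 33, exact 95% interval 13.3 to 45.5%) and 26.4% of N1d.early cells (18.8 to 35.2%) had a count at E13. At E14 these shares were 39.9% of N1d.late cells (32.05 to 48.1%) and 41.2% of N1d.early cells (7 of 17, 18.4 to 67.1%). A similar share of cells in both clusters thus held Eomes reads, within wide intervals, while the amounts in the sums differed. The intervals cover counting error only. Over all genes tested, the share was higher in N1d.late by a median of 4.96 points at E13 and 9.15 points at E14. Against those medians, the Eomes share in N1d.late was low on both days. Of the E14 N1d.early counts of Eomes, 46.9% came from 1 cell.

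Neurog2, the proneural factor that starts neuronal differentiation, had 27.3 CPM in N1d.late and 74.3 CPM in N1d.early at E13, and 40.7 CPM in N1d.late and 157.2 CPM in N1d.early at E14. Btg2, an antiproliferative gene of neurogenic divisions, had 20.4 CPM in N1d.late and 68.5 CPM in N1d.early at E13, and 53.97 CPM in N1d.late and 134.3 CPM in N1d.early at E14. Hes6, a Hes family member that promotes neurogenesis, had 54.55 CPM in N1d.late and 138.3 CPM in N1d.early at E13, and 171.9 CPM in N1d.late and 256 CPM in N1d.early at E14. All of these were lower in N1d.late on both days, and none passed the edgeR threshold. Of the E14 N1d.early counts, 1 cell held 30.6% for Neurog2, 54.5% for Btg2 and 48.9% for Hes6.

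Apical progenitor markers were lower on both days for 6 of 11 members tested, against 19.8% of all genes, and higher on both for 2, with medians of -0.72 at E13 and -0.38 at E14. Vim, the intermediate filament of radial glia, had 115.98 CPM in N1d.late and 192 CPM in N1d.early at E13, and 124.5 CPM in N1d.late and 354 CPM in N1d.early at E14, a fitted difference of -1.26 with a standard error of 0.56 (edgeR adjusted p = 0.999). After thinning, 39.4% of N1d.late cells and 52.9% of N1d.early cells had a Vim count at E13, and 58.2% of N1d.late cells and 82.4% of N1d.early cells at E14. Pax6, a master regulator of radial glia named here after its values were seen, was counted in 18.2% of N1d.late cells and 23.1% of N1d.early cells at E13, and in 36.6% of N1d.late cells (28.97 to 44.8%) and 76.5% of N1d.early cells (50.1 to 93.2%) at E14. Its level was 25.9 CPM in N1d.late and 45.2 CPM in N1d.early at E13, and 94.7 CPM in N1d.late and 123.7 CPM in N1d.early at E14. Nes, another tested marker of this list, was among the 2 higher in N1d.late on both days. It had 39.4 CPM in N1d.late and 31.2 CPM in N1d.early at E13, and 26.9 CPM in N1d.late and 2.12 CPM in N1d.early at E14. Its fitted difference was 1.80 with a standard error of 2.14. Sox2, a core factor of apical progenitors, was low in every sum, at 8.74 CPM in N1d.late and 8.00 CPM in N1d.early at E13 and 5.63 CPM in N1d.late and 1.77 CPM in N1d.early at E14.

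Of the 8 Notch pathway genes tested, 5 were lower on both days and 0 were higher on both, against 19.8% and 31.3% of all genes. The list shares Hes6, Dll1, Dll3 and Mfng with the basal progenitor markers, and Notch1, Hes1 and Hes5 with the apical ones. The counts of these lists are therefore not separate. The pathway keeps neighbouring progenitors undifferentiated, with Delta ligands on one cell signalling to Notch receptors on the next. Nrarp, a Notch target that feeds back on the pathway, had 0.404 CPM in N1d.late and 29.3 CPM in N1d.early at E13, and 9.13 CPM in N1d.late and 68.5 CPM in N1d.early at E14, but all of its E14 N1d.early counts came from 1 cell. It reached the 10 CPM needed for testing in the 2 N1d.early sums alone, so its direction was fixed by that filter.

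Genes that rise or fall in progenitors with embryonic age did not mirror the cluster names. The late progenitor genes were lower in N1d.late on both days for 8 of 21 members, against 19.8% of all genes, higher on both for 2 and opposite for 11, with medians of -0.48 at E13 and -0.44 at E14. This list shares Slc1a3, Aldoc, Sox9 and Ddah1 with the apical progenitor markers. Summed over all 27 members, however, the list stood at 9415 CPM in N1d.late and 7724 CPM in N1d.early at E13, and at 7302 CPM in N1d.late and 8976 CPM in N1d.early at E14. Nfib alone, a member of the list, gave a large part of each sum. At E13 Nfib stood at 6262 CPM in N1d.late and 4698 CPM in N1d.early. At E14 it stood at 4231 CPM in N1d.late and 4374.5 CPM in N1d.early. Fabp7, the brain lipid-binding protein of radial glia, had 124.7 CPM in N1d.late and 257 CPM in N1d.early at E13, and 298 CPM in N1d.late and 791 CPM in N1d.early at E14. Its fitted difference was -1.37 with a standard error of 0.41 (edgeR adjusted p = 0.494), and 60.5% of its E14 N1d.early counts came from 1 cell; without the deepest E14 N1d.early cell it was -0.91. Mt2, a metallothionein, had 1.67 CPM in N1d.late and 9.63 CPM in N1d.early at E13, and 18.9 CPM in N1d.late and 218 CPM in N1d.early at E14. The early progenitor genes split: 4 of 10 were higher on both days, 3 lower on both and 3 opposite.

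Among these, Hmgb2, a chromatin protein high in cycling cells, was lower, with 38.1 CPM in N1d.late and 121.5 CPM in N1d.early at E13, and 65.6 CPM in N1d.late and 367 CPM in N1d.early at E14 (fitted difference -2.22, standard error 0.65, edgeR adjusted p = 0.485, DESeq2 adjusted p = 0.0295). Fgfr3, a fibroblast growth factor receptor of progenitors, had 1.47 CPM in N1d.late and 36.7 CPM in N1d.early at E13, and 14.7 CPM in N1d.late and 99.6 CPM in N1d.early at E14, with 96.8% of the last sum in 1 cell. Igf2bp3, an RNA-binding protein of embryonic tissue, was higher, at 184 CPM in N1d.late and 55.4 CPM in N1d.early at E13, and 63.2 CPM in N1d.late and 2.12 CPM in N1d.early at E14.

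**Figure D3:**
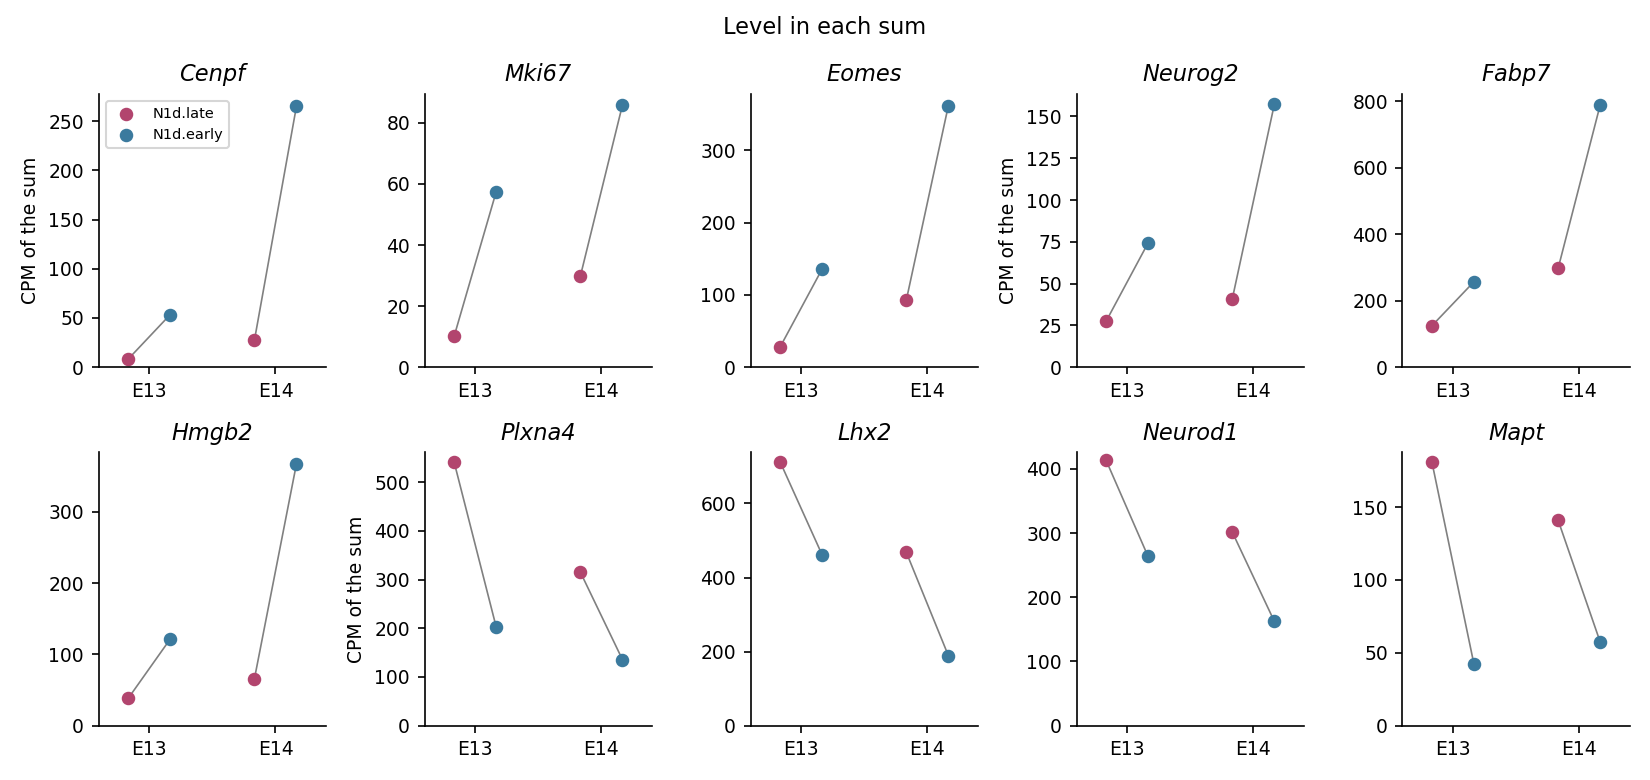
Level of 10 genes in each sum, in CPM on a linear axis from 0; in each pair the left point is N1d.late and the right point N1d.early of the same injection day. Cenpf, Mki67, Eomes, Neurog2, Fabp7 and Hmgb2 lie lower, and Plxna4, Lhx2, Neurod1 and Mapt higher, in N1d.late on both days.

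Markers of young and maturing neurons were more often higher than lower in N1d.late on both days. Of the 14 maturing neuron markers tested, 10 were higher on both days and 0 were lower on both, with medians of 0.52 at E13 and 0.54 at E14. Of the 17 young neuron markers, 9 were higher on both days and 0 lower on both, with medians of 0.42 at E13 and 0.10 at E14. Over all genes 2676 of 8546 were higher on both days and the E14 median was 0.40, above that of the young neuron markers. Among the 4184 genes with a mean of at least 50 CPM, the E14 median was -0.01, below that of these markers. The median of the markers covers all 17, without that cut on level. The fitted median of the young neuron markers, 0.21, was -0.08 with equal weight per cell and -0.03 with thinned cells. Their summed level at E14 was 22250 CPM in N1d.late and 22800 CPM in N1d.early. Mapt, which encodes the microtubule protein tau, had 181 CPM in N1d.late and 42.0 CPM in N1d.early at E13, and 140.8 CPM in N1d.late and 57.2 CPM in N1d.early at E14 (fitted difference 1.56, standard error 0.82, edgeR adjusted p = 0.999). Of its E14 N1d.early counts, 77.2% came from 1 cell.

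Neurod1, a transcription factor of newborn neurons, had 414 CPM in N1d.late and 264 CPM in N1d.early at E13, and 302 CPM in N1d.late and 162.5 CPM in N1d.early at E14. Nhlh1, another basic helix-loop-helix factor of newborn neurons, had 102.4 CPM in N1d.late and 43.75 CPM in N1d.early at E13, and 29.4 CPM in N1d.late and 9.54 CPM in N1d.early at E14. For Nhlh1 92.6%, and for Neurod1 28.7%, of the E14 N1d.early counts came from 1 cell. Of 23 radial migration genes tested, 11 were higher on both days, 4 lower on both and 8 opposite, and their fitted median of 0.24 was -0.12 with equal weight per cell and -0.08 with thinned cells. Zbtb18, a repressor needed for radial migration, was abundant in every sum, at 1794 CPM in N1d.late and 1227 CPM in N1d.early at E13, and 2026 CPM in N1d.late and 1234 CPM in N1d.early at E14. Prex1, a Rac activator in migrating neurons, had 239 CPM in N1d.late and 129.4 CPM in N1d.early at E13, and 176 CPM in N1d.late and 15.2 CPM in N1d.early at E14. For Prex1 74.4%, and for Zbtb18 28.8%, of the E14 N1d.early counts came from 1 cell.

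Axon guidance ligands and receptors, which steer growth cones and migrating neurons, were higher on both days for 17 of 29 members tested and lower on both for 1, and 4 were at least 2-fold higher on both. Their median difference was 0.70 at E13 and 0.21 at E14, above the median of all genes at E13 and below it at E14. Among the 4184 genes with a mean of at least 50 CPM, the median was 0.04 at E13 and -0.01 at E14. The axon guidance medians lay above both, but they cover all 29 tested members, without that cut on level. Plxna4, a semaphorin co-receptor, was higher in both pairs, at 541 CPM in N1d.late and 203 CPM in N1d.early at E13, and 315 CPM in N1d.late and 135.7 CPM in N1d.early at E14. Both N1d.late sums lay above both N1d.early sums, and the fitted difference was 1.18 with a standard error of 0.46 (edgeR adjusted p = 0.999). Epha3, an ephrin receptor, had 448 CPM in N1d.late and 279 CPM in N1d.early at E13, and 306 CPM in N1d.late and 134.6 CPM in N1d.early at E14. Robo2, a Slit receptor, had 476 CPM in N1d.late and 392 CPM in N1d.early at E13, and 573 CPM in N1d.late and 287 CPM in N1d.early at E14.

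The share of cells with a count gave a second view of these genes at matched depth. At 50000 counts a cell, 224 of 8546 genes (2.62%) were found in a share of N1d.late cells at least 20 percentage points higher on both days, and 0 genes (0.0%) in a share at least 20 points lower on both. Over all genes the median gain was 4.96 points at E13 and 9.15 points at E14, with a correlation between the days of 0.16 across genes. Since N1d.late cells showed more genes at equal depth, a member's gain is read against these medians. Of the 29 axon guidance genes, 22 were found in a higher share of N1d.late cells on both days and 0 in a lower share on both, against 60.1% and 5.01% of all genes, with medians of 10.2 points at E13 and 9.80 points at E14. Of the 16 G2 and M phase genes, 8 were found in a lower share on both days, and so were 6 of the 11 apical progenitor markers, against 428 of all 8546 genes. Other progenitor lists did not share this. Of the 12 basal progenitor markers, 3 were found in a higher share on both days and 2 in a lower share on both. Of the 8 Notch pathway genes, 1 was found in a higher share on both days and 1 in a lower share on both.

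Plxna4 was counted in 84.8% of N1d.late cells (28 of 33, exact 95% interval 68.1 to 94.9%) and 51.2% of N1d.early cells (41.99 to 60.4%) at E13. At E14 it was counted in 81.05% of N1d.late cells (73.9 to 86.9%) and 52.9% of N1d.early cells (9 of 17, 27.8 to 77.02%). Neurod1 was counted in 81.8% of N1d.late cells and 55.4% of N1d.early cells at E13, and in 83.7% of N1d.late cells and 52.9% of N1d.early cells at E14. Unc5d, a netrin receptor of multipolar neurons named here after its values were seen, was counted in 69.7% of N1d.late cells and 45.5% of N1d.early cells at E13, and in 90.2% of N1d.late cells and 58.8% of N1d.early cells at E14. Its level showed less: 371 CPM in N1d.late and 228 CPM in N1d.early at E13, and 469 CPM in N1d.late and 454 CPM in N1d.early at E14. Prex1 was counted in 66.7% of N1d.late cells and 43.8% of N1d.early cells at E13, and in 64.1% of N1d.late cells and 23.5% of N1d.early cells at E14. For Neurod1 the E14 intervals were 76.8 to 89.1% in N1d.late and 27.8 to 77.02% in N1d.early. All such intervals cover counting error over cells only. Cells are not replicates of a cluster, so the intervals are no test of a difference between the clusters for any of these genes.

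**Figure D4:**
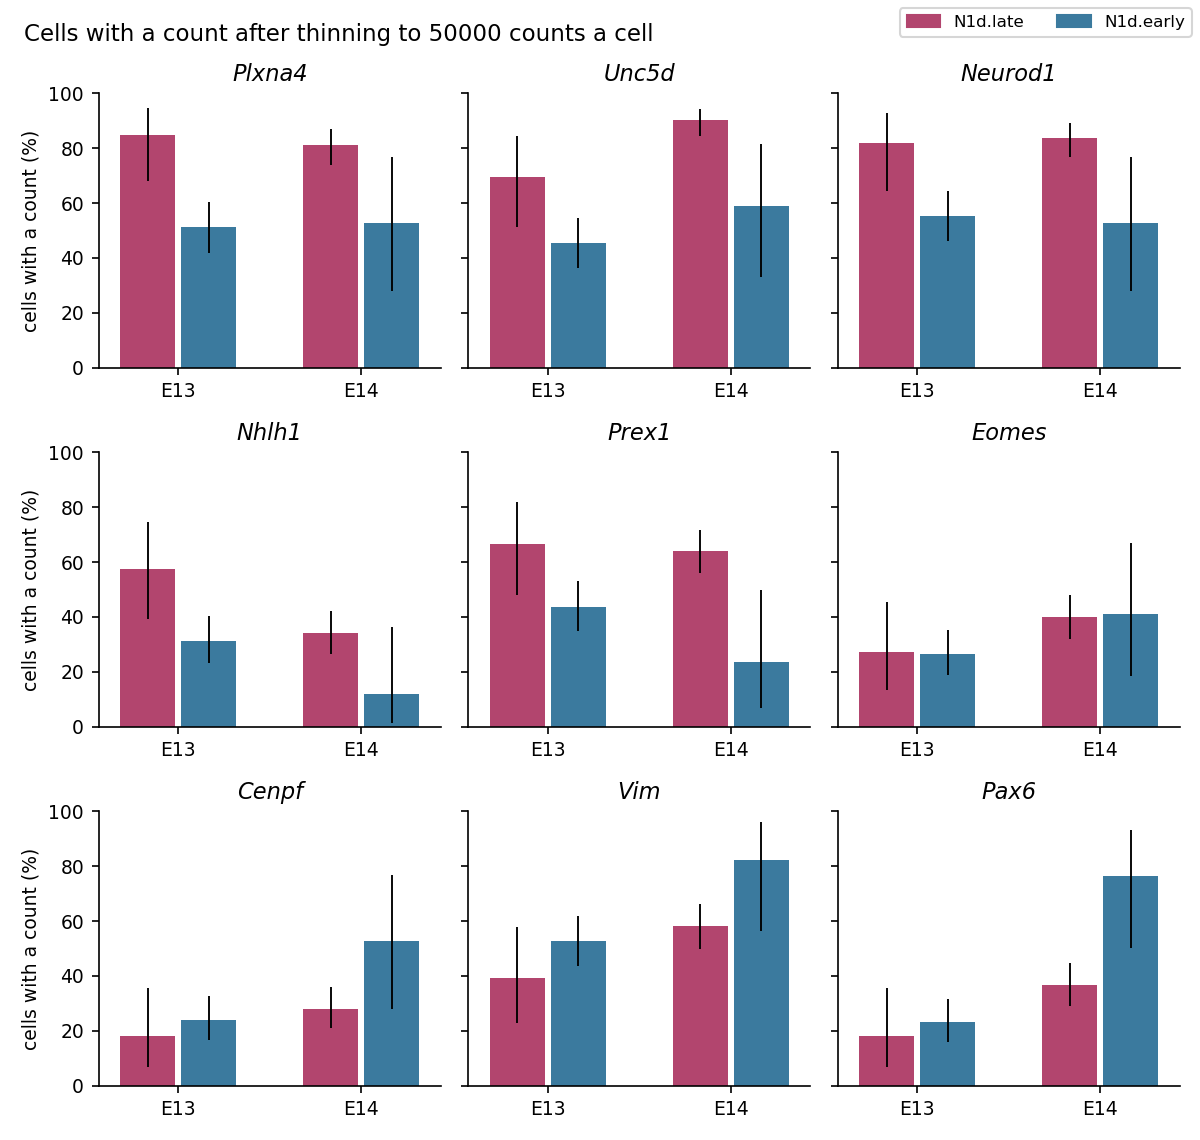
Share of cells with at least 1 count of each gene after thinning every cell to 50000 counts (33 N1d.late and all N1d.early cells at E13, all N1d.late cells but 1 and 17 N1d.early cells at E14); bars run from 0 and lines are exact 95% binomial intervals. Plxna4, Unc5d, Neurod1, Nhlh1 and Prex1 were found in more, and Cenpf, Vim and Pax6 in fewer, of the N1d.late cells on both days, while Eomes differed by under 2 points.

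Layer identity genes did not take 1 direction. Of the 14 upper-layer genes tested, 7 were higher in N1d.late on both days, 0 were lower on both and 7 were opposite, with medians of 0.51 at E13 and 0.63 at E14. Lhx2, a LIM homeobox factor of cortical progenitors and upper-layer neurons, had 713 CPM in N1d.late and 461 CPM in N1d.early at E13, and 468 CPM in N1d.late and 189 CPM in N1d.early at E14 (fitted difference 0.83, standard error 0.39, edgeR adjusted p = 0.999). Cux1, an upper-layer homeobox gene, was level at E13, at 124.1 CPM in N1d.late and 122.9 CPM in N1d.early, and apart at E14, at 283 CPM in N1d.late and 26.5 CPM in N1d.early. Pou3f2 (Brn2), an upper-layer POU factor, had 228 CPM in N1d.late and 125.4 CPM in N1d.early at E13, and 490 CPM in N1d.late and 927 CPM in N1d.early at E14.

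Of the 11 deep-layer genes tested, 3 were higher on both days, 1 was lower on both and 7 were opposite, with medians of 0.46 at E13 and -0.41 at E14. Bcl11b (Ctip2), a factor of subcortically projecting neurons, had 733 CPM in N1d.late and 399 CPM in N1d.early at E13, and 322 CPM in N1d.late and 621 CPM in N1d.early at E14. Sox5, which orders the birth of deep-layer neurons, had 405 CPM in N1d.late and 361 CPM in N1d.early at E13, and 361 CPM in N1d.late and 779 CPM in N1d.early at E14. Tbr1, the layer 6 factor, and Fezf2, the layer 5 factor, were higher in N1d.late on both days. Tbr1 had 345 CPM in N1d.late and 209 CPM in N1d.early at E13, and 153.5 CPM in N1d.late and 142.7 CPM in N1d.early at E14. Fezf2 had 154.7 CPM in N1d.late and 111.8 CPM in N1d.early at E13, and 60.03 CPM in N1d.late and 32.15 CPM in N1d.early at E14. Of the E14 N1d.early counts, 1 cell held 84.9% for Tbr1 and 50.5% for Fezf2.

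**Figure D5:**
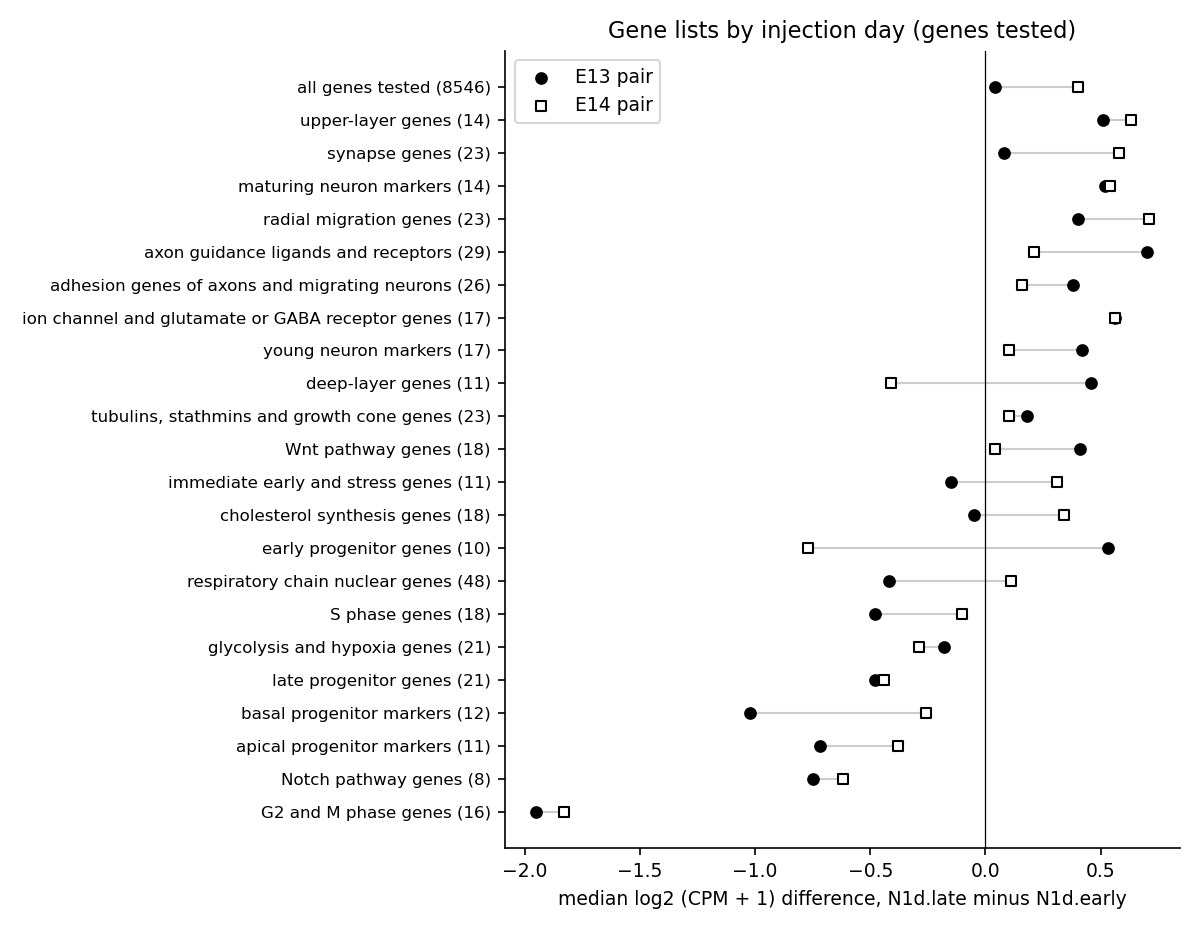
Median difference in log2 (CPM + 1), N1d.late minus N1d.early, over the tested members of each list with at least 8 of them, for the E13 pair (filled circles) and the E14 pair (open squares); all genes tested are at the top and the number of genes is in parentheses. G2 and M phase genes lie lowest on both days, at -1.95 and -1.83, and deep-layer and early progenitor genes change sides between the days.

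Metabolic lists showed small differences. Of 21 glycolysis and hypoxia genes, 11 were lower in N1d.late on both days and 3 were higher on both, with medians of -0.18 at E13 and -0.29 at E14. Of 48 nuclear genes of the respiratory chain, 32 took opposite directions on the 2 days, against 48.9% of all genes.

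The genes with the largest difference shared by both days, among those with a mean of at least 50 CPM, belonged mostly to no list, and 12 were taken in each direction. Those higher in N1d.late were Zfp945, Zfp652, Elf2, Mnat1, Igf2bp3, Lrpprc, Sbf2, Tada2a, Atp7a, Mcts2, Gprasp1 and Nmd3, with the smaller of their 2 log2 differences between 1.54 and 2.13. Zfp945, a zinc finger gene, had 118.3 CPM in N1d.late and 26.3 CPM in N1d.early at E13, and 58.4 CPM in N1d.late and 2.83 CPM in N1d.early at E14. Atp7a, a copper transporter, had 104.6 CPM in N1d.late and 19.3 CPM in N1d.early at E13, and 84.6 CPM in N1d.late and 26.85 CPM in N1d.early at E14. Their E14 N1d.early values rested on counts in 3 to 9 cells, and 6 of the 12 kept the sign at E12.

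The 12 lower in N1d.late were Pdk3, Zfp507, Atp5s, Atrip, Cenpf, Usp40, Taf9b, Rgs19, Ttf1, Serpinb6a, Axin1 and Tmem206, with smaller differences between 2.07 and 3.08 in size. For 10 of the 12, over 50% of the E14 N1d.early counts came from 1 cell, and 6 of the 12 kept the sign at E12. Taf9b reached the 10 CPM needed for testing in the 2 N1d.early sums alone, so its direction was fixed by that filter. Pdk3, a kinase that inhibits pyruvate dehydrogenase, had 0.202 CPM in N1d.late and 10.5 CPM in N1d.early at E13, and 23.4 CPM in N1d.late and 205 CPM in N1d.early at E14, where 2 cells held all its counts. Rgs19, a regulator of G protein signalling, had all its E14 N1d.early counts in 1 cell and took the opposite sign, 0.84, without the deepest cell of that sum. Axin1, a scaffold of the Wnt pathway's destruction complex, took the opposite sign, 1.83, among cells of 100000 to 600000 counts.

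Markers of other cell types were present at low levels, some as high as single genes described above. Summed over 16 interneuron markers, the level was 9.04 CPM in N1d.late and 18.2 CPM in N1d.early at E13, and 26.8 CPM in N1d.late and 79.1 CPM in N1d.early at E14, where 1 cell held 64.7%; Slc32a1, the GABA vesicle transporter, was at 0 in all 4 sums. Cajal-Retzius markers summed to 91.4 CPM in N1d.late and 159.9 CPM in N1d.early at E13, and to 79.1 CPM in N1d.late and 27.9 CPM in N1d.early at E14. Subplate markers summed to 51.3 CPM in N1d.late and 52.8 CPM in N1d.early at E13, and to 57.4 CPM in N1d.late and 61.8 CPM in N1d.early at E14, where 1 cell held 96.6%. Endothelial and pericyte, microglia and blood, and oligodendrocyte precursor markers stayed at or under 20.8 CPM in every sum. Progenitor markers moved with the cluster: apical markers summed to 428 CPM in N1d.late and 609 CPM in N1d.early at E13, and to 468 CPM in N1d.late and 881 CPM in N1d.early at E14, and basal markers to 739 CPM in N1d.late and 1157 CPM in N1d.early at E13, and to 1021 CPM in N1d.late and 1603 CPM in N1d.early at E14. In sums of cells, a lower level per cell and fewer cells with the gene cannot be told apart, and the part of such cells in the G2 and M phase difference was not tested.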

How the data were processed

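Whole-number read counts per gene and cell were taken as the authors deposited them, in a table of 16441 genes and 2756 cells with no normalization, per the file's values. Per the submitters' processing notes, TopHat2 2.0.13, UMI-tools and GRCm38 were used, with no role stated, and the counter and cell filters are not given in the sources used here. Column totals reached at least 99.3% of the read number in the labels. Of the value columns, 1868 were not used.

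Counts were summed over the cells of each cluster and injection day, because cells are not replicates. The labels name no animals, so a p-value reflects how these 4 sums scatter and nothing about animals. Genes with at least 10 CPM in at least 2 of the 4 sums were fitted with edgeR 4.0.16 (TMM, quasi-likelihood, injection day and cluster as terms), and the standard error is the log2 difference divided by the square root of its F statistic. The prior degrees of freedom came out infinite. The edgeR p-value and standard error of a gene thus rest on a spread shared over genes, and do not measure that gene's own scatter between days. DESeq2 1.42.0 was an alternative. The fit was tested on 4 simulated sums, drawn with the spread fitted here. It recovered 8 of 100 genes changed by a log2 of 2 and 58 of 100 changed by a log2 of 4, with 0 false calls. Few differences of the smaller size would thus be called. The 2 clusters of a day share run and birth day per the labels, which is the pairing; 2 pairs allow no check by correlation. Differences of single days are log2 (CPM + 1). Doublets were not called.

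Named genes were the 12 in each direction with the largest value of the smaller day's difference (mean of at least 50 CPM, predicted, ribosomal protein and mitochondrial genes passed over), up to 4 members with the smallest p in each of 28 lists, and a few followed genes. The comparison and the lists were chosen with earlier results of these data known. Values of a few list members are not reported here, though the list counts include them. Python 3.11.15 with scipy 1.17.1 and R 4.3.3 were used.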

Additional observations from a re-analysis of the deposited data

Results flagged for a closer look

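The 2 pairs went opposite ways for several lists and genes, and the difference between the days was not tested, since each day has 1 sum per cluster. The median difference in log2 (CPM + 1), N1d.late minus N1d.early, was 0.46 at E13 and -0.41 at E14 for deep-layer genes, and 0.53 at E13 and -0.77 at E14 for early progenitor genes. It was -0.42 at E13 and 0.11 at E14 for nuclear genes of the respiratory chain, -0.05 and 0.34 for cholesterol synthesis genes, and -0.15 and 0.31 for immediate early and stress genes. With 3 members tested each, it was -0.63 and 2.22 for Cajal-Retzius markers and -1.05 and 3.76 for subplate markers. Among single genes, Bcl11b differed by 0.88 at E13 and -0.95 at E14, and Pou3f2 by 0.86 and -0.92. Pou3f3 differed by 0.28 and -0.33, and Sox5 by 0.17 and -1.11. The E14 values rest on 18 N1d.early cells.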

How the results depend on the processing

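The fit has 1 residual degree of freedom, and the E14 N1d.early sum holds 2830505 counts from 18 cells, which limits every E14 value. The 0 calls of edgeR stayed at 0 with DESeq2 size factors, no filter, thinned cells, no replicate block (0 calls), progenitor sums of the same days sharing the spread, or without the deepest E14 N1d.early cell. There were 46 calls with DESeq2 (3 higher, 43 lower), 1 lower gene with detection in 10% of cells, 1 with equal weight per cell and 1 with all 4 days. Cells of 100000 to 600000 counts gave 7 calls (1 higher, 6 lower), and a pseudo-differentiation of 0.30 to 0.42 gave 3 (1 higher, 2 lower). Genes at least 2-fold higher on both days made up 7.02% of those tested with no filter (1116 genes, against 592) and 3.53% with a pseudocount of 10 CPM (302 genes), and genes at least 2-fold lower made up 5.18% for cells of 100000 to 600000 counts (433 genes, against 277) and 1.73% with a pseudocount of 10 CPM; the 10 CPM setting and the one without the deepest cell were chosen after seeing the data. The G2 and M phase median was -1.45 with no filter, -1.63 with detection in 10% of cells, -1.60 with equal weight, -2.08 for cells of 100000 to 600000 counts, -2.04 with no replicate block, -2.07 with progenitor sums, -2.02 without the deepest cell, and -1.83 to -1.95 by single pair. The apical progenitor median was -1.08 with no filter, -1.11 with detection in 10% of cells, -1.87 for cells of 100000 to 600000 counts, -1.10 with all 4 days, and -0.38 to -0.72 by single pair. The basal progenitor median lay between -1.02 and -0.26. The axon guidance median was 0.70 with all 4 days and 0.21 to 0.70 by single pair, while the upper-layer median lay between 0.09 and 1.04 and the late progenitor median between -0.75 and -0.25. These 6 medians kept their sign in all 14 settings, while those of 14 of the 24 lists followed took the opposite sign in at least 1, among them the young neuron, radial migration, S phase, deep-layer, early progenitor and glycolysis lists.

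Of 704 values of 59 genes under another setting, 20 took the opposite sign and 19 passed the threshold. For cells of 100000 to 600000 counts the opposite values were Mki67 0.49, Pou3f2 0.10 and Axin1 1.83. For a pseudo-differentiation of 0.30 to 0.42 they were Mki67 0.26, Bcl11b 0.04, Pou3f2 0.04, Usp40 0.20, Serpinb6a 1.04 and Axin1 1.97. With all 4 days they were Hes6 0.21, Rbfox3 -0.07, Bcl11b 0.70, Pou3f2 0.87, Sox5 0.17 and Tbr1 -0.80. With equal weight per cell they were Tbr1 -0.18 and Unc5d -0.05, and with thinned cells Tbr1 -0.21 and Unc5d -0.03. Rgs19 was 0.84 without the deepest cell. The causes were not tested. Counts of calls could not be computed from a single pair, which leaves no residual degree of freedom.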

Other observations

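Across genes with a mean of at least 500 CPM (289 genes), the E13 differences had a Pearson correlation of 0.42 with those of E12, whose N1d.late sum holds 7 cells, and of -0.11 with those of E14. Over all 8546 genes these correlations were 0.041 and 0.014. The E12 and E13 pairs carry 1 run code and the E14 pair another. The G2 and M phase genes had a median difference of -3.23 at E12, N1d.late minus N1d.early, and the basal progenitor markers one of -2.19, against -0.43 over all genes at E12. The axon guidance genes had a median of 0.24 at E12. Cenpf and Mki67 were not lower at E12, with 77.8 and 66.4 CPM in N1d.late, against 63.02 and 61.3 CPM in N1d.early.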
